A study of Homo sapiens with 30 samples.

Results

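The 4 ID genes (ID1, ID2, ID3 and ID4), 4 genes that feed back on BMP and TGF-beta signalling (SMAD6, SMAD7, SMAD9 and BAMBI) and the Notch target HES1 were followed in neuroblastoma cells given antisense oligonucleotides (ASOs) that target NESPR, a long non-coding RNA. These 9 genes were chosen by name, from results of the same data, out of 52007 Ensembl genes that the 3 expression tables share. All 9 were found in every table. The minimum mean level for testing was passed by all 9 genes in 2 lines, IMR32 and NGP, and by 8 of them in SK-N-BE(2)c, where ID4 fell short.

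IMR32, NGP and SK-N-BE(2)c are established neuroblastoma lines, each standing here for 1 cell line and not for a tumour. All groups received 100 nM of an ASO with a lipofection reagent, and RNA was taken from attached cells; the time from transfection to collection is not given in the sources used here. In IMR32 there were 4 libraries each of the NESPR ASOs ASO1 and ASO2 and of the negative control ASO (NCA). Each of the other lines, SK-N-BE(2)c and NGP, had 3 libraries each of ASO2, ASO10 and NCA. No untransfected cells were part of these comparisons, so every control cell carried the control oligonucleotide and the transfection reagent. The level of NESPR itself was not used here, so it does not check the labels.

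BMP ligands bind paired receptor kinases at the cell surface, which phosphorylate SMAD1, SMAD5 and SMAD9. These join SMAD4, enter the nucleus and switch on target genes, of which the ID genes are among the most direct. ID proteins have a helix-loop-helix domain but no DNA-binding region, so they hold E proteins such as TCF3 and TCF4 away from DNA and from tissue-specific partners like HAND2, which acts in the differentiation of the sympathetic lineage. SMAD6 and SMAD7 are inhibitory SMADs that block the receptors and their substrates, BAMBI is a pseudoreceptor without a kinase domain, and all 3 are themselves induced by the pathway. HES1 is a helix-loop-helix repressor induced by Notch and by other signals.

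The promoters of the ID genes and of SMAD6 are shown because the ID genes were all higher with both ASOs in IMR32, and SMAD6, also higher there, was lower in other lines. RefSeq starts on GRCh38.p14 were matched by symbol for 9 of 9 genes. SMAD7 had 3 starts and each other gene 1, which makes 11. Each sequence is the 250 bases upstream of the start, 5′ to 3′ on the strand of the gene: ID1 at chr20:31605039-31605288 (plus strand), ID2 at chr2:8681806-8682055 (plus), ID3 at chr1:23559502-23559751 (minus), ID4 at chr6:19837120-19837369 (plus) and SMAD6 at chr15:66701986-66702235 (plus). Capitals mark matches on either strand. The letters searched were TATAA, found in the classic element just upstream of many starts, and CCAAT, which NF-Y binds and which reads ATTGG on the opposite strand. They also included GGCGCC, a palindrome bound by BMP-activated SMADs, and GTCTAGAC, the palindromic SMAD box. The motifs were chosen after the sequences had been seen, and a match is a description of the letters only.

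ID1: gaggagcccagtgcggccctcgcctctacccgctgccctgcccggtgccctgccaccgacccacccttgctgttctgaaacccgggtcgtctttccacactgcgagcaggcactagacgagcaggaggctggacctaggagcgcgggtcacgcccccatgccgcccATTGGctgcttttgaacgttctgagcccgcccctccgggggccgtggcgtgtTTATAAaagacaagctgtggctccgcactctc
ID2: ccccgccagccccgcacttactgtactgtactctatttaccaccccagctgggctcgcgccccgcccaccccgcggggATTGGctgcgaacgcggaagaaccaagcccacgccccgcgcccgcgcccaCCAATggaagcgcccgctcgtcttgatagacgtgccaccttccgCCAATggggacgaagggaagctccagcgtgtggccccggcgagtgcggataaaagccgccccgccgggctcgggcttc
ID3: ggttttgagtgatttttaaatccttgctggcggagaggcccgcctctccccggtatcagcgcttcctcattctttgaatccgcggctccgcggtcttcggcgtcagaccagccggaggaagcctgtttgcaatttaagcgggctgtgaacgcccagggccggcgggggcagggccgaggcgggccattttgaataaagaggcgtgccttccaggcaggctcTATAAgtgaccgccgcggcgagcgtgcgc
ID4: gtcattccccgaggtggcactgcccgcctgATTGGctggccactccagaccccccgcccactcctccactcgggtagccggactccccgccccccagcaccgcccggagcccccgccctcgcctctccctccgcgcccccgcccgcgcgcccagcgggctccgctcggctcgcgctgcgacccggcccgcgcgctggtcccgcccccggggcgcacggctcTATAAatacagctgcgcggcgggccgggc
SMAD6: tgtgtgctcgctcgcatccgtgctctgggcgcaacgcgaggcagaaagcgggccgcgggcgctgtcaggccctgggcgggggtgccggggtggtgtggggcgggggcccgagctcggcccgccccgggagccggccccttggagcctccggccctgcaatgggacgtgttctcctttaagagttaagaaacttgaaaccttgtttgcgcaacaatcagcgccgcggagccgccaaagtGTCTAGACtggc

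TATAA lay 29 to 25 bases upstream of the start of both ID3 and ID4, and 31 to 27 bases upstream in ID1, where it overlapped a match on the other strand (32 to 28). The ID2 window held no TATAA but 3 CCAAT matches, ID1 and ID4 held 1 each, and ID3 held none. SMAD6 alone among the 11 starts held GTCTAGAC, 12 to 5 bases upstream. Over all 35116 RefSeq starts, 18.9% of windows of this length held TATAA, 32% held CCAAT, 16.4% held GGCGCC and 0.182% held GTCTAGAC. GGCGCC was found at BAMBI only, with 3 matches. HES1 held 3 CCAAT matches, BAMBI held 1, and the second SMAD7 start held TATAA 35 to 31 bases upstream.

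Libraries held 9393587 to 15060356 reads. The deposited values are normalized counts, that is reads divided by a size factor of each library, and a fold change is a difference of log2(value + 1), which understates changes of low genes. NGP and SK-N-BE(2)c were scaled together and IMR32 apart, so IMR32 levels are not set against the others. All 8 adrenergic markers read here (PHOX2A, HAND2, GATA3, ISL1, TH, DBH, CHGA and CHGB) had mean levels of at least 10 in every group. Their summed normalized count was 42060.2 to 44650.5 in NGP NCA, 37407 to 38993 with ASO2 and 34476 to 36357 with ASO10. The corresponding ranges were 44688 to 50684 in NCA, 44060.4 to 46119 with ASO2 and 40152 to 41079 with ASO10 in SK-N-BE(2)c, and 26383 to 27237 with NCA, 25004 to 26822 with ASO1 and 23864 to 25104 with ASO2 in IMR32. The summed level of 6 mesenchymal genes, mostly VIM, was higher with ASO2: 13364 to 14219 against 9584 to 9754 in NGP, 3614 to 3688 against 2543 to 2695 in SK-N-BE(2)c and 4165 to 4390 against 3110 to 3581 in IMR32. With the other ASO it was 10842 to 11621 in NGP, 3380 to 3640 in SK-N-BE(2)c and 3280 to 3787 in IMR32. PRRX1, which defines mesenchymal neuroblastoma cells, stayed at 0 to 5.92 in every library, and the Schwann cell gene SOX10 at 0 to 2.84. The part of these marker shifts in the results was not tested, and in such bulk samples a smaller share of cells of a type cannot be told apart from less RNA per cell.

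In IMR32 all 4 ID genes were higher in every library with either NESPR ASO than in any NCA library. Of all 17309 genes tested, 2327 lay above NCA in this way with ASO1 and 2818 with ASO2. ID1, which restrains differentiation in many lineages, read 44.8, 53.0, 52.7 and 57.0 normalized counts in the 4 NCA libraries. It read 157, 188, 173 and 164 with ASO1, and 179.8, 261, 254 and 257 with ASO2. No ASO library overlapped the controls, and ASO2 replicate 1 was lower than the other ASO2 libraries. The log2 fold change of ID1 was 1.70 (SE 0.12, n = 4 against 4) with ASO1 and 2.16 (SE 0.12) with ASO2, or 27th and 12th from the top of 17309 genes tested.

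ID3, a close relative of ID1, was the lowest of the 4 in IMR32, with 15.3, 23.4, 23.1 and 15.6 in NCA. Its values were 43.8, 69.5, 73.0 and 48.5 with ASO1 and 49.1, 79.1, 88.9 and 74.3 with ASO2. All 8 ASO libraries lay above all 4 controls. Its log2 fold changes were 1.54 and 1.85 (SE 0.21 each), wider in error than for ID1.

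ID2, which binds E proteins and also the retinoblastoma protein, read 140.4, 132, 161 and 149.7 in NCA. It read 322, 359, 384 and 354 with ASO1, and 222, 282, 284 and 309 with ASO2. Here ASO1 was the higher of the NESPR ASOs, the reverse of ID1. The log2 fold changes were 1.28 and 0.90 (SE 0.09 each).

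ID4, the family member most tied to neural progenitors, read 67.2, 87.6, 119.7 and 111 in NCA, 257, 278, 346 and 299 with ASO1 and 204, 257, 243 and 278 with ASO2. Against NCA the log2 fold changes were 1.63 and 1.37 (SE 0.14 each), and the groups did not overlap. Over the 4 ID genes the median log2 fold change was 1.59 with ASO1 and 1.61 with ASO2, where the median of all tested genes was 0.00 with each. These contrasts are the ones by which the genes were chosen, so they are given as descriptions with no p. Where the threshold is named for them, it says only on which side of it a value lies in the fit of all genes.

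**Figure D1:**
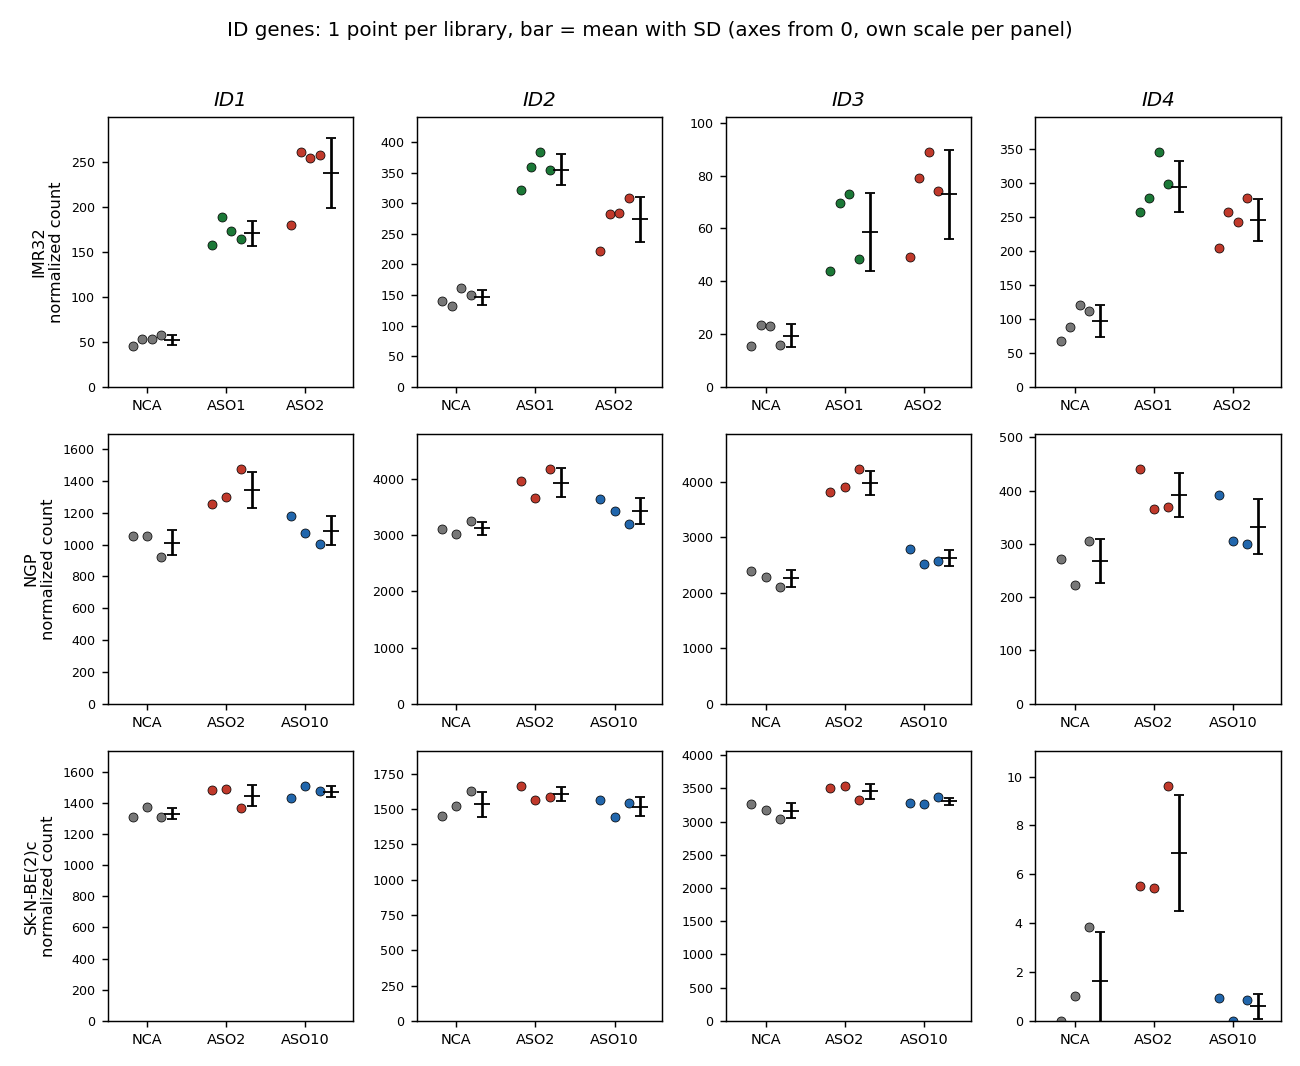
Normalized count of ID1, ID2, ID3 and ID4 (columns) in the 3 lines (rows), 1 point per library, with the group mean and SD as a bar beside the points and a separate scale from 0 in each panel. All IMR32 ASO libraries lie above the NCA libraries in all 4 genes, and in NGP the ASO2 libraries do so too. The text gives how many of all tested genes do the same. In SK-N-BE(2)c ID4 is at most 9.6 in any library.

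In NGP all 4 ID genes were higher in every ASO2 library than in any NCA library, as were 4672 of all 14440 genes tested. ID3 read 2399, 2294 and 2099 with NCA, 3814, 3916 and 4229 with ASO2 and 2784, 2527 and 2576 with ASO10. The log2 fold change was 0.82 (SE 0.06, n = 3 against 3) with ASO2 and 0.22 (SE 0.06) with ASO10. ASO2 lay apart from both other groups, and ASO10 just above NCA.

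ID1 in NGP read 1054, 1056 and 919 with NCA, 1253, 1300.4 and 1473 with ASO2 and 1182, 1075 and 1003 with ASO10. ID2 read 3105, 3022 and 3252 with NCA, 3971, 3656 and 4175 with ASO2 and 3653, 3433 and 3207 with ASO10. For both genes the ASO2 libraries stood above NCA and the ASO10 libraries overlapped it. The log2 fold changes were 0.41 (SE 0.08) and 0.11 (SE 0.08) for ID1, and 0.33 (SE 0.06) and 0.13 (SE 0.06) for ID2, with ASO2 and ASO10 in that order. ID4 read 272, 223 and 306 with NCA, 440.03, 366 and 368 with ASO2 and 391, 306 and 299.8 with ASO10, for log2 fold changes of 0.56 and 0.32 (SE 0.12 each). The ASO10 libraries of ID4 overlapped NCA, and its ASO10 value was 0.19 without ASO10 replicate 1 and 0.19 without NCA replicate 2, no longer past the threshold in either case.

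The 3 ID genes tested in SK-N-BE(2)c differed from NCA by at most 0.14 on the log2 scale. ID1 read 1310.1, 1372 and 1312 with NCA, 1480, 1490.3 and 1368 with ASO2 and 1433, 1506 and 1475 with ASO10. ID3 read 3267, 3178 and 3047 with NCA, 3512, 3532 and 3330.4 with ASO2 and 3286, 3265 and 3369.8 with ASO10. ID2 ranged from 1450.3 to 1626 with NCA, 1565 to 1661 with ASO2 and 1440.2 to 1565 with ASO10. With ASO2 the log2 fold changes of ID1, ID2 and ID3 were 0.12, 0.07 and 0.13 (SE 0.05 to 0.06), all 3 of which turned negative (-0.02, -0.07 and -0.00925) once every library was scaled to one total. That rescaling moved the median of all genes in this contrast from -0.02 to -0.15. With ASO10 they were 0.14, -0.02 and 0.06. ID4 was near the floor, with 0, 1 and 4 reads in NCA, 5, 6 and 8 with ASO2 and 1, 0 and 1 with ASO10, so no fold change is given.

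Among the genes that restrain the pathway, SMAD7 was higher with ASO2 in all 3 lines and not with ASO10. SMAD7 blocks both BMP and TGF-beta receptors and brings ubiquitin ligases to them. In NGP it read 497, 476 and 463 with NCA, 675, 725 and 773 with ASO2 and 464, 466 and 412 with ASO10. The SK-N-BE(2)c values were 340.1, 359 and 346 with NCA, 493, 470.5 and 464 with ASO2 and 304, 372 and 302 with ASO10. The ASO2 libraries stood above every other library of the line in both cases. Of all 13556 genes tested in SK-N-BE(2)c, 4666 lay above and 4724 below every NCA library with ASO2, and 4119 and 4650 with ASO10. In NGP, of 14440, the counts were 4672 and 4337 with ASO2, and 4128 and 4409 with ASO10. How many stood apart from both other groups was not counted, so separation of groups is only described here and below.

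The log2 fold change of SMAD7 against NCA was 0.60 (SE 0.08) with ASO2 and -0.10 (SE 0.08) with ASO10 in NGP, and 0.45 (SE 0.09) and -0.10 (SE 0.09) in SK-N-BE(2)c. In IMR32 it ranged from 214 to 238 with NCA, 272 to 294 with ASO1 and 289 to 337 with ASO2, and the log2 values against NCA were 0.29 and 0.40 (SE 0.07 each).

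BAMBI, which competes with the receptors for partners, showed a similar split. It read 738, 709 and 777 with NCA, 1174, 1093 and 1190.3 with ASO2 and 702, 690.4 and 702 with ASO10 in NGP. It read 362, 361 and 420.2 with NCA, 442, 479.5 and 523 with ASO2 and 276, 274 and 274 with ASO10 in SK-N-BE(2)c. ASO2 was above NCA in both lines, while ASO10 lay below NCA in every library.

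For BAMBI the log2 fold changes were 0.64 and -0.09 (SE 0.07 each) in NGP and 0.34 and -0.47 (SE 0.09 each) in SK-N-BE(2)c, for ASO2 and ASO10 in that order. With SK-N-BE(2)c libraries scaled to one total the ASO2 value was 0.20 and no longer past the threshold. In IMR32 BAMBI ranged from 48.4 to 59.3 with NCA, 61.6 to 104.3 with ASO1 and 73.7 to 94.8 with ASO2, for log2 fold changes of 0.65 and 0.70 (SE 0.15 each).

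SMAD6, the inhibitory SMAD most selective for BMP signals, did not follow SMAD7. The SK-N-BE(2)c values were 805, 748 and 715 with NCA, 448, 509 and 423 with ASO2 and 585, 554 and 587 with ASO10. Both ASO groups were below NCA, with log2 fold changes of -0.72 and -0.39 (SE 0.08 each). In NGP it read 247, 348 and 309 with NCA, 277, 252 and 299 with ASO2 and 164, 203 and 184 with ASO10, for -0.12 and -0.70 (SE 0.12 each). Only the ASO10 libraries of NGP lay below all controls. In IMR32 it was higher with both ASOs: 399 to 429 with NCA, 456 to 498 with ASO1 and 479 to 528 with ASO2, for 0.23 and 0.30 (SE 0.06 each).

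SMAD9 (also called SMAD8), a receptor-activated SMAD that transmits weakly and can dampen BMP signals, was lowest with ASO10. In NGP it read 2307, 2172 and 2546 with NCA, 2256, 2215 and 2180.3 with ASO2 and 1432, 1343 and 1435 with ASO10. The SK-N-BE(2)c values were 1618, 1674 and 1510.2 with NCA, 1426, 1413 and 1461 with ASO2 and 1069, 867 and 1003 with ASO10. The ASO10 groups did not overlap either other group of their line.

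With ASO10 the log2 fold changes of SMAD9 were -0.74 (SE 0.06) in NGP and -0.71 (SE 0.07) in SK-N-BE(2)c, and with ASO2 they were -0.08 (SE 0.06) and -0.16 (SE 0.07). In IMR32 SMAD9 ranged from 2141 to 2334 with NCA, 1832 to 2172 with ASO1 and 1879 to 2110.3 with ASO2, for -0.20 and -0.18 (SE 0.06 each). The IMR32 ASO2 value was -0.16 without ASO2 replicate 4 and no longer past the threshold. The SK-N-BE(2)c value with ASO2 was past the threshold in only 3 of 9 fits that left out 1 library, and it ran from -0.17 to -0.12 in the other 6, which left out ASO2 replicate 1, 2 or 3, ASO10 replicate 3 or NCA replicate 1 or 2.

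HES1 was higher with ASO2 in every line. In NGP it read 125.7, 107.2 and 94.4 with NCA, 209.8, 189.6 and 158 with ASO2 and 179.3, 142 and 183 with ASO10, and both ASO groups lay above NCA. SK-N-BE(2)c libraries read 167, 152 and 156 with NCA, 224, 206 and 209.9 with ASO2 and 140.4, 164 and 149 with ASO10, so that only ASO2 stood apart. The log2 fold changes were 0.76 and 0.62 (SE 0.14 each) in NGP and 0.43 and -0.07 (SE 0.12 each) in SK-N-BE(2)c. In IMR32 HES1 had 7.08, 2.47, 3.29 and 4.59 with NCA, 12.8, 9.20, 14.2 and 14.2 with ASO1 and 14.0, 16.9, 17.1 and 18.3 with ASO2. There its mean with NCA was 4.36 ± 2.01 (SD, n = 4), so it reached the minimum mean of 10 through the ASO libraries, and its log2 fold changes of 1.40 and 1.78 (SE 0.29 each) rest on few reads.

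**Figure D2:**
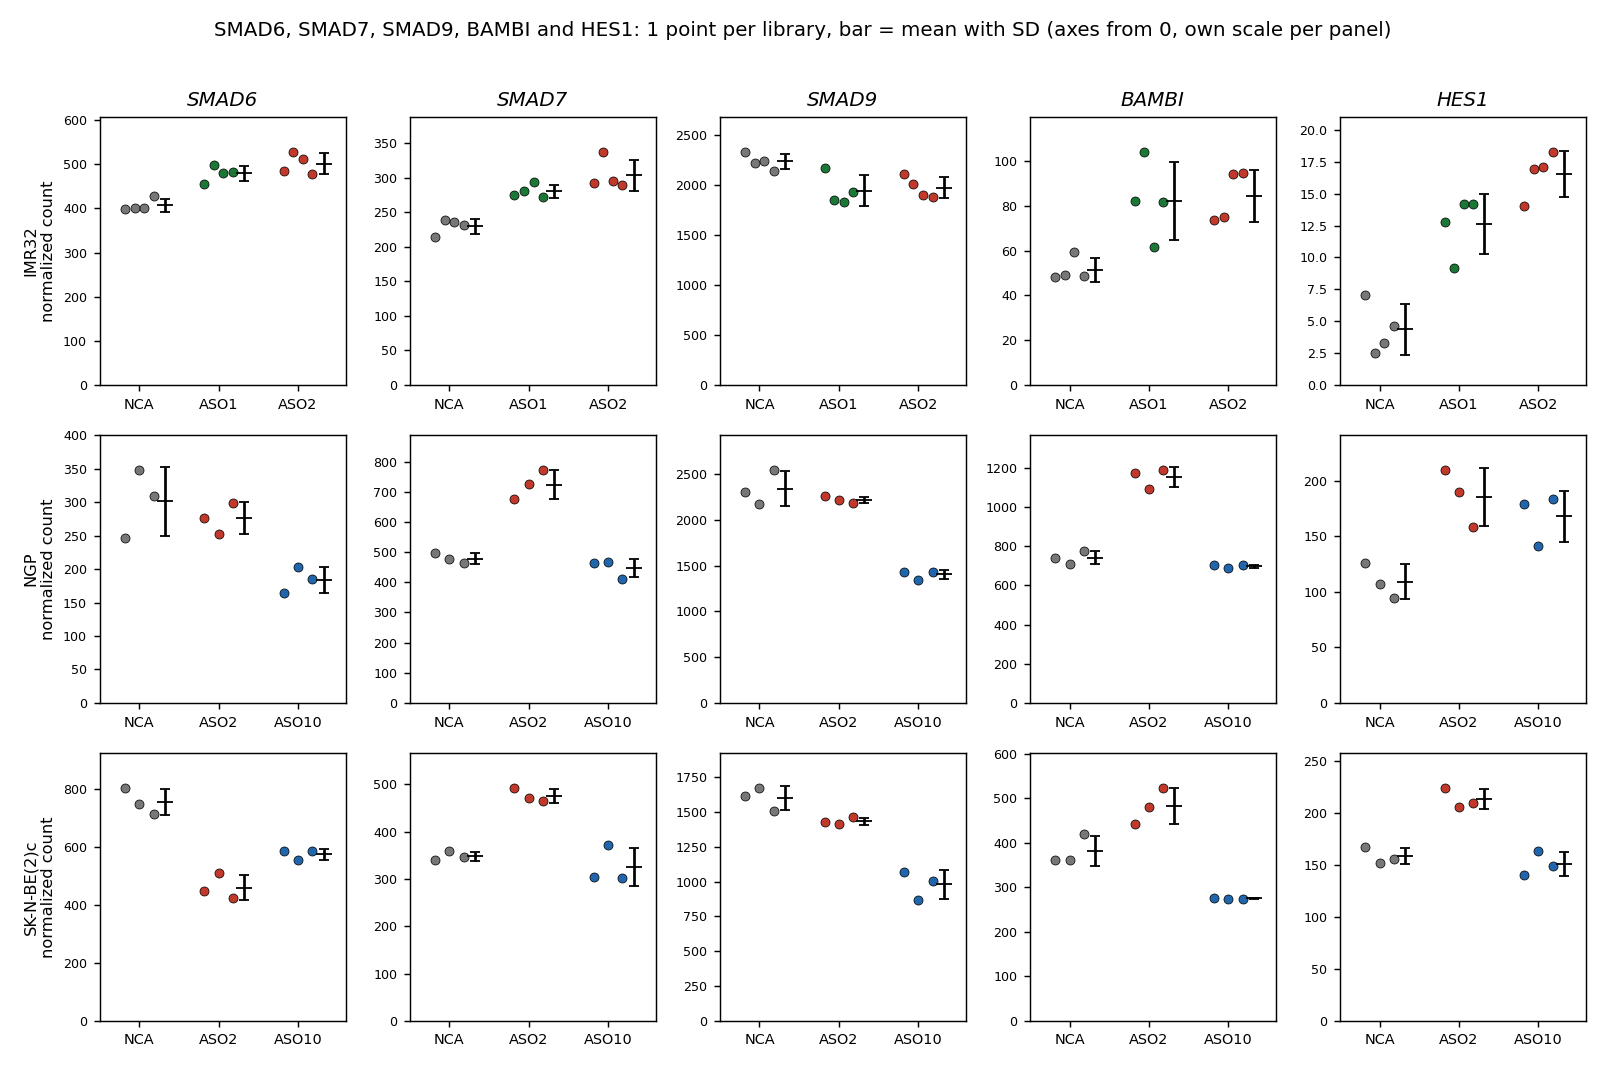
Normalized count of SMAD6, SMAD7, SMAD9, BAMBI and HES1 (columns) in the 3 lines (rows), 1 point per library, with the group mean and SD as a bar and a separate scale from 0 in each panel. SMAD7 and BAMBI lie higher with ASO2 than with ASO10 in both lines that had both, and SMAD9 is lowest with ASO10. SMAD6 lies above NCA in IMR32 and below NCA in SK-N-BE(2)c. The text gives how many of all tested genes lie above NCA in IMR32 and below NCA in SK-N-BE(2)c.

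Counted at an adjusted p under 0.05 in limma, 8 of the 9 genes were called higher and 1 lower with ASO1 in IMR32, where 28% of all tested genes were called (13.6% higher and 14.4% lower). The counts were 8 higher and 1 lower with ASO2 in IMR32 (32.4% of all tested genes called, 17.6% higher and 14.8% lower), 7 higher and 0 lower with ASO2 in NGP (58.7%, or 30.6% higher and 28.1% lower) and 3 higher and 2 lower with ASO10 in NGP (54.4%, or 26.8% higher and 27.6% lower). In SK-N-BE(2)c, of 8 genes tested, 4 were called higher and 2 lower with ASO2 (67%, or 33.6% higher and 33.4% lower), and 1 higher and 3 lower with ASO10 (58.9%, or 27.8% higher and 31.1% lower). Since the genes were chosen on these contrasts, nothing is read from these counts. ID3 with ASO2 in SK-N-BE(2)c was no longer called without ASO2 replicate 1 or 2 or NCA replicate 2 or 3 (log2 0.10 to 0.13). ID1 with ASO10 there was no longer called without ASO10 replicate 2 or 3 or NCA replicate 1 or 3 (log2 0.13 to 0.14).

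**Figure D3:**
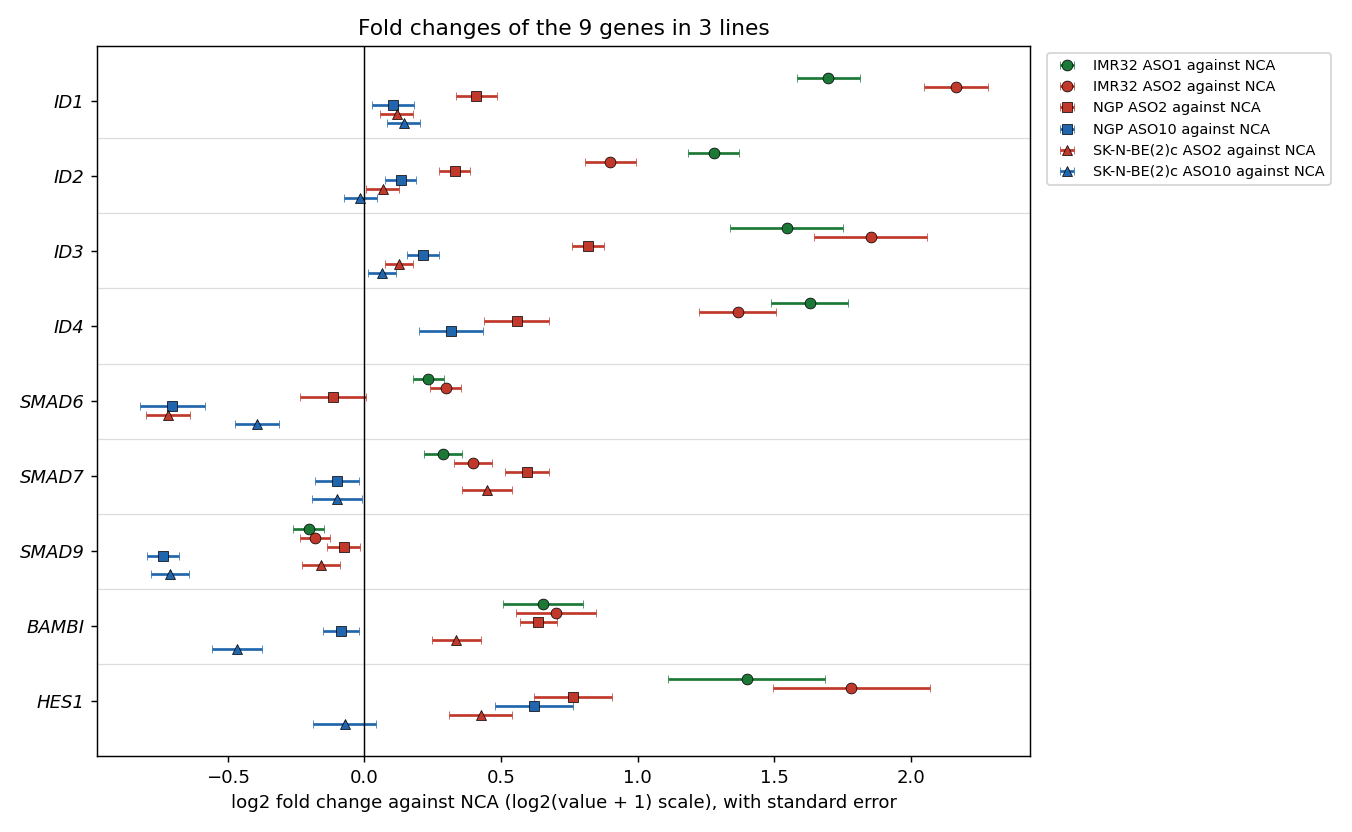
Log2 fold change against NCA (horizontal axis, log2(value + 1) scale) of the 9 genes (vertical axis) with its standard error, colour for the ASO and marker shape for the line. IMR32 values of the ID genes lie between 0.90 and 2.16 and those of SK-N-BE(2)c between -0.02 and 0.14; blue ASO10 markers lie to the left of red ASO2 markers of the same line for SMAD7, SMAD9 and BAMBI.

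The NESPR ASOs were then set against each other, a contrast by which the genes were not chosen, although its libraries also enter the contrasts above. In IMR32, ID1 was lower with ASO1 than with ASO2 (log2 -0.47, SE 0.12, limma adjusted p = 0.00628) and ID2 was higher with ASO1 (0.38, SE 0.09, adjusted p = 0.0061). These were 2 of 9 genes, where 21.9% of all tested genes were called (9.17% higher and 12.8% lower). The other 7 genes differed by -0.38 to 0.26 and were not called, HES1 and ID3 with the widest errors (SE 0.29 and 0.21).

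In NGP 7 of the 9 genes were higher with ASO2 than with ASO10 and none lower, where 58.6% of all tested genes were called (30.6% higher and 28% lower). The differences were 0.72 for BAMBI (SE 0.07, limma adjusted p = 1.23e-09), 0.69 for SMAD7 (SE 0.08, adjusted p = 5.3e-08), 0.66 for SMAD9 (SE 0.06, adjusted p = 8.4e-10), 0.60 for ID3 (SE 0.06, adjusted p = 3.05e-09) and 0.59 for SMAD6 (SE 0.12, adjusted p = 0.000177). ID1 and ID2 differed less, by 0.30 (adjusted p = 0.00124) and 0.20 (adjusted p = 0.00474). ID4 (0.24, adjusted p = 0.0823) and HES1 (0.14, adjusted p = 0.403) were not called. ID4 passed the threshold without ASO10 replicate 1 (0.36), and also without NCA replicate 2 or 3, where its value stayed at 0.24.

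In SK-N-BE(2)c 4 of 8 genes were higher with ASO2 than with ASO10 and 1 was lower, where 65.4% of all tested genes were called (34.6% higher and 30.8% lower). BAMBI differed by 0.80 (SE 0.09, limma adjusted p = 1.06e-08), SMAD9 by 0.55 (SE 0.07, adjusted p = 5.38e-08), SMAD7 by 0.55 (SE 0.09, adjusted p = 6.08e-06) and HES1 by 0.50 (SE 0.12, adjusted p = 0.000443). SMAD6 went the other way (-0.33, SE 0.08, adjusted p = 0.000773). ID1 (-0.03), ID2 (0.08) and ID3 (0.06) were not called, with SEs of 0.05 to 0.06, and scaling to one total turned ID2 and ID3 to -0.03 and -0.05 and brought ID1 past the threshold at -0.14. SMAD7, SMAD9 and BAMBI differed between the same ASOs in both lines, in the same direction. How many of all tested genes did so was not counted, so nothing about these genes is read from it.

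Levels with NCA were compared between NGP and SK-N-BE(2)c, which share a scaling. The 8 genes tested in both lines all differed, 4 higher and 4 lower in SK-N-BE(2)c, where 77% of all tested genes were called (37.3% higher and 39.8% lower). SMAD6 was higher there by 1.34 (SE 0.11, limma adjusted p = 4.25e-11), ID3 by 0.48 (adjusted p = 1.36e-08), HES1 by 0.54 (adjusted p = 0.00077) and ID1 by 0.40 (adjusted p = 1.14e-05). ID2 was lower there by 1.03 on the log2 scale (value -1.03, SE 0.06, adjusted p = 5.02e-14), and BAMBI (-0.96), SMAD9 (-0.55) and SMAD7 (-0.46) were lower too, with adjusted p of 1.56e-11, 5.88e-08 and 2.49e-05. ID4 had 223 to 306 normalized counts in NGP against 0 to 3.86 in SK-N-BE(2)c, and it passed the minimum level in this fit only through NGP, the line where it is high, so it is not counted.

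Per kilobase of exon, the order with NCA in NGP was ID2 (1418 ± 52.9, SD, n = 3), ID3 (1260.0 ± 84.7), ID1 (819 ± 63.9), SMAD9 (409 ± 33.1), BAMBI (320.3 ± 14.9), ID4 (114 ± 17.7), SMAD7 (95.1 ± 3.47), HES1 (52.9 ± 7.63) and SMAD6 (35.2 ± 5.97). Only ID4 and SMAD7 overlapped among neighbours in this order. ID3 came first in SK-N-BE(2)c (1761 ± 61.4), then ID1 (1080 ± 28.7) and ID2 (695 ± 40.0), then SMAD9 (279.7 ± 14.5), BAMBI (165 ± 14.6), SMAD6 (88.3 ± 5.29), HES1 (76.9 ± 3.83) and SMAD7 (69.2 ± 1.91), with ID4 last at 0.692 ± 0.853. No neighbours overlapped there. In IMR32, on its own scale, SMAD9 led at 391 ± 13.8 per kilobase and ID2 followed at 66.2 ± 5.74, while HES1 was last at 2.11 ± 0.977.

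The effect of each ASO was then compared between NGP and SK-N-BE(2)c in a joint fit. It is made of the contrasts named above, but the difference between lines was not used to choose the genes. For ASO2, 4 of the 8 genes tested in both lines had a lower effect in SK-N-BE(2)c. Of all tested genes, 16.7% were called (8.79% higher and 7.95% lower). ID3 differed by -0.69 (SE 0.08, limma adjusted p = 2.29e-06) and SMAD6 by -0.60 (SE 0.15, adjusted p = 0.00852). ID1 (-0.29, SE 0.10, adjusted p = 0.0411) and ID2 (-0.26, SE 0.08, adjusted p = 0.0307) were close to the threshold. ID1 lost its call in 9 of 18 fits that left out 1 library (NGP ASO2 replicate 2 or 3, NGP NCA replicate 3, SK-N-BE(2)c ASO2 replicate 1 or 3, ASO10 replicate 3, or NCA replicate 1, 2 or 3), with adjusted p up to 0.125. ID2 lost its call in 7 of 18 (NGP ASO2 replicate 1 or 3, NGP NCA replicate 1 or 2, SK-N-BE(2)c ASO2 replicate 2 or 3, or NCA replicate 3), with adjusted p up to 0.0886. The count of 4 fell to 2 without NGP ASO2 replicate 3, without SK-N-BE(2)c NCA replicate 3 and also without the minimum level.

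BAMBI missed the threshold for ASO2 (-0.30, SE 0.10, adjusted p = 0.0501 in limma) and passed it in several other fits, at adjusted p down to 0.0146. SMAD7 (-0.15), SMAD9 (-0.08) and HES1 (-0.34) were not called. ID4, near the floor in SK-N-BE(2)c, passed the minimum level in this fit only through NGP, so it is not counted and no p is given. Its value went the other way (1.28, SE 0.54), and it was 1.87 without SK-N-BE(2)c NCA replicate 3. For ASO10, 16.9% of all tested genes were called (8.09% higher and 8.78% lower). Among the same 8 genes, 2 had a lower effect in SK-N-BE(2)c. They were BAMBI (-0.38, SE 0.10, limma adjusted p = 0.0143) and HES1 (-0.69, SE 0.19, adjusted p = 0.0145). BAMBI was at -0.31 (adjusted p = 0.0501) without SK-N-BE(2)c NCA replicate 3, which left HES1 as the only call. The ID4 value, again resting on few reads in SK-N-BE(2)c, was -0.80, and -1.34 without SK-N-BE(2)c NCA replicate 1. SMAD6 (0.31, adjusted p = 0.174) passed the threshold only without NGP NCA replicate 1, at 0.45.

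The rest of the pathway was read from 8 lists with 97 genes, of which IMR32 had 78 tested, NGP 77 and SK-N-BE(2)c 66. These genes are no members, but the lists were chosen with earlier results of these data known. Genes were named by their changes against NCA, so no p is printed for a named gene in those contrasts. A p between ASOs is from limma and shares the ASO libraries with them. Other SMAD target genes were mostly called higher in IMR32 and NGP. With ASO1 and with ASO2 in IMR32, 7 of 9 tested were called higher and 0 lower (medians 0.90 and 0.78). In NGP 9 of 10 were called higher with ASO2 (median 0.88) and 8 of 10 with ASO10 (0.91), and 0 were lower. Both NGP counts include GADD45B, which passed the minimum mean of 10 there only through the ASO libraries. In SK-N-BE(2)c 5 of 10 were called higher with each ASO and 1 was lower with ASO2 (medians 0.68 and 0.16). The medians of all genes in these contrasts lay between -0.03 and 0.01, and the shares of all genes called are those printed above.

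5 genes of that list and 1 receptor were called higher in all 6 contrasts against NCA, as were 3.05% of the 11594 genes tested in all lines, while 2.92% were called lower in all 6. MSX2, a homeobox target of BMP signals, went from 205 ± 24.6 (SD, n = 3) with NCA to 524 ± 33.6 with ASO2 and 546 ± 51.8 with ASO10 in NGP, for log2 fold changes of 1.35 and 1.41 (SE 0.10 each). The SK-N-BE(2)c log2 fold changes were 0.97 and 0.99, and in IMR32 they were 1.25 with ASO1 and 1.22 with ASO2. MSX2 did not differ past the threshold between ASO2 and ASO10 in either line (-0.06, adjusted p = 0.652 in NGP, and -0.02, adjusted p = 0.873 in SK-N-BE(2)c, limma).

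KLF10, a zinc finger gene induced by TGF-beta, rose by 0.32 and 0.46 in IMR32, by 0.84 and 1.14 in NGP and by 0.73 and 0.57 in SK-N-BE(2)c. SNAI1, which represses epithelial genes, rose by 0.92 and 0.89, by 0.64 and 0.68, and by 0.68 and 0.37 in the same order of lines. JUNB, an AP-1 subunit, rose by 0.90 and 0.57, 0.93 and 0.86, and 0.96 and 0.65. GADD45B, a stress and TGF-beta response gene, rose by 1.26 and 0.78, 1.41 and 2.55, and 1.44 and 0.67. In NGP NCA it had only 3.38 ± 1.26 normalized counts, under the minimum mean of 10. It was thus tested in NGP only through the ASO libraries, and its call in all 6 contrasts rests on that. ACVR2A, a type II receptor for activins and BMPs, rose by 0.26 and 0.16 in IMR32, the latter just past the threshold. It rose by 1.10 and 0.74 in NGP and by 1.04 and 0.50 in SK-N-BE(2)c. KLF10, JUNB, SNAI1 and GADD45B also respond to signals other than SMADs.

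Receptors moved in both directions. BMPR2, the main type II receptor for BMPs, was 1132 ± 47.5 with NCA, 449 ± 34.0 with ASO2 and 506 ± 47.4 with ASO10 in SK-N-BE(2)c. Its log2 fold changes there were -1.34 and -1.16 (SE 0.08). In NGP BMPR2 fell by 1.03 and 0.92 on the log2 scale, and in IMR32 it fell by 0.23 with ASO2 and was not called with ASO1 (-0.07). Of the receptors and co-receptors, 1 of 12 tested was called higher and 4 lower with ASO1 and 1 and 2 with ASO2 in IMR32. The counts were 7 and 3 of 13 with ASO2 and 4 and 4 with ASO10 in NGP, and 5 and 5 of 14 and 2 and 5 in SK-N-BE(2)c.

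Among the signalling SMADs, SMAD4, the shared partner of all receptor-activated SMADs, fell with ASO2 in both lines that had ASO2 and ASO10. It was 973 ± 78.1 with NCA, 582 ± 45.9 with ASO2 and 1091 ± 37.7 with ASO10 in NGP, and 517 ± 11.7, 313 ± 37.3 and 506 ± 26.2 in SK-N-BE(2)c. The difference between ASO2 and ASO10 was -0.91 and -0.70 (limma adjusted p = 1.37e-10 and 8.06e-08). In IMR32 SMAD4 was not called with either ASO (0.04 and -0.12). Of the 5 signalling SMADs, those called higher and lower numbered 0 and 1 with ASO1 and 2 and 1 with ASO2 in IMR32, 3 and 1 with ASO2 and 1 and 1 with ASO10 in NGP, and 1 and 2 and 0 and 3 in SK-N-BE(2)c.

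Of genes that restrain SMADs inside the cell, TOB1 had the largest mean change among those tested in all 3 lines. It rose by 0.56 and 0.66 in IMR32, by 0.94 and 0.93 in NGP and by 0.59 with ASO2 in SK-N-BE(2)c. With ASO10 in SK-N-BE(2)c it differed by 0.14 and was not called. Genes called higher and lower in this list numbered 2 and 2 with ASO1 and 5 and 1 with ASO2 of 11 in IMR32, 7 and 0 with ASO2 and 4 and 2 with ASO10 of 11 in NGP, and 5 and 0 and 2 and 5 of 10 in SK-N-BE(2)c.

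Ligands and antagonists were called in both directions. Of the ligands, 1 was called higher and 1 lower of 7 with each ASO in IMR32, 3 and 0 of 6 with ASO2 and 1 and 1 with ASO10 in NGP, and 0 and 0 of 5 with ASO2 and 1 and 1 with ASO10 in SK-N-BE(2)c. INHBE, an activin subunit induced by cell stress, had the largest mean change among the ligands tested in all 3 lines. It rose by 1.94 and 1.53 in NGP from 5.29 ± 0.838 and fell by 0.39 and 0.50 in IMR32. In NGP it passed the minimum mean of 10 only through the ASO libraries. Of the extracellular antagonists, 0 and 1 of 6 were called with each ASO in IMR32, 1 and 0 of 6 with each ASO in NGP, and 0 and 0 of 3 with ASO2 and 0 and 1 with ASO10 in SK-N-BE(2)c, the last being TWSG1 (-0.32). The antagonist called higher in NGP was NOG (noggin, which binds BMPs), singled out here after its values were seen. It was 13.6 ± 5.92 with NCA, 45.8 ± 6.74 with ASO2 and 33.6 ± 5.52 with ASO10, for log2 fold changes of 1.75 and 1.31 (SE 0.28 each).

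The listed helix-loop-helix genes, which are E proteins and tissue-specific partners of E proteins, did not move together. Higher and lower calls numbered 0 and 2 of 10 with ASO1 and 2 and 3 with ASO2 in IMR32, 4 and 2 of 10 with ASO2 and 6 and 4 with ASO10 in NGP, and 3 and 3 of 7 and 2 and 5 in SK-N-BE(2)c. NHLH1, a neuronal member, rose with ASO10. In NGP it was 23.0 ± 9.3 with NCA and 71.7 ± 8.44 with ASO10, and the SK-N-BE(2)c means were 3.98 ± 1.56 and 54.4 ± 4.44. With ASO2 it stood at 23.3 ± 8.94 in NGP and at 8.06 ± 2.21 in SK-N-BE(2)c. In SK-N-BE(2)c it passed the minimum mean of 10 only through the ASO10 libraries, where it is high. In IMR32 NHLH1 was not called with ASO1 (-0.17) and fell by 0.43 on the log2 scale with ASO2.

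In the Notch list around HES1, higher and lower calls numbered 4 and 3 of 18 with ASO1 and 5 and 3 with ASO2 in IMR32, 5 and 4 of 16 with ASO2 and 6 and 2 with ASO10 in NGP, and 2 and 5 of 12 and 4 and 5 in SK-N-BE(2)c. The receptor NOTCH3 went in opposite directions with the ASOs: 123 ± 32.9 with NCA, 27.9 ± 3.94 with ASO2 and 384 ± 84.4 with ASO10 in NGP, and 111 ± 25.4, 28.6 ± 13.0 and 478 ± 66.6 in SK-N-BE(2)c. The ASO2 to ASO10 difference was -3.72 and -4.12 (limma adjusted p = 1.28e-14 and 3.71e-15). In the same libraries HES1 was above NCA with both ASOs in NGP, where the ASOs did not differ past the threshold, and above both other groups with ASO2 in SK-N-BE(2)c.

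**Figure D4:**
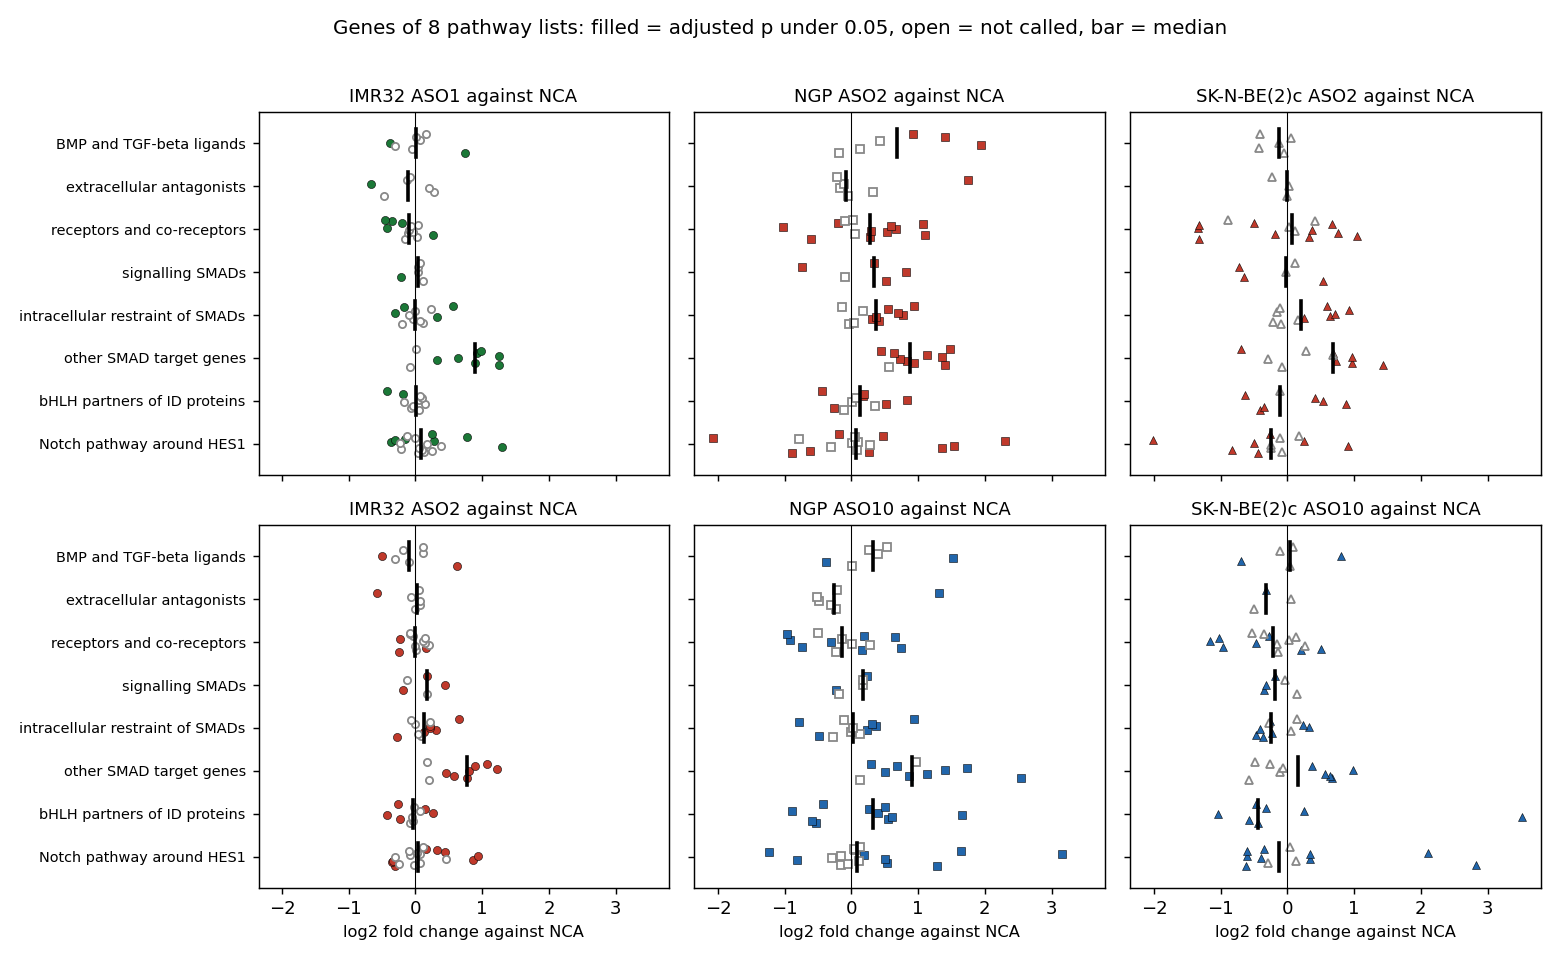
Log2 fold change against NCA (horizontal axis) of the tested genes of 8 pathway lists (rows) in each contrast (panels), filled where the adjusted p is under 0.05 and open where it is not, with the list median as a bar. The medians of the other SMAD target genes lie between 0.16 and 0.91, while those of the bHLH partners lie between -0.45 and 0.33.

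Likeness between genes was measured as Pearson's r of log2 values centred in each line, over 30 libraries and 11593 genes tested in all 3 lines. It is a description, since the libraries share groups, controls and scaling. The gene most like ID1 was ID3 (r = 0.95), followed by RHOB (0.89) and ID2 (0.86). For ID3 they were ID1, ADAMTS1 (0.89) and RHOB (0.89), and for ID2 HSPA1B (0.92), DUSP1 (0.92) and RHOB (0.92). Within SK-N-BE(2)c alone (9 libraries) the r of ID1 was 0.70 with ID3, 0.01 with ID2 and -0.49 with RHOB. That of ID2 was 0.23 with HSPA1B, 0.10 with DUSP1 and -0.15 with RHOB there, and that of ID3 was 0.40 with ADAMTS1 and -0.13 with RHOB. In NGP alone, ID2 and HSPA1B had an r of 0.44, against 0.98 in IMR32.

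SMAD7 was most like EPHB3 (0.93), UBE2J2 (0.93) and MAP2K1 (0.92), and BAMBI most like RGS2 (0.90), IFRD1 (0.88) and TFRC (0.87). SMAD9 was most like NCAPG2 (0.97), ESRRG (0.96) and C1orf21 (0.96), HES1 most like NOP16 (0.87), ID1 (0.85) and PLK2 (0.85), and SMAD6 most like TLX2 (0.83), PPP5C (0.80) and AKAP13 (0.80). Among the members, SMAD7 and BAMBI had an r of 0.80, SMAD6 and SMAD7 one of 0.10, and ID1 and SMAD9 one of -0.24.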

How the data were processed

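RNA of 30 libraries was sequenced, and the libraries were grouped by their titles. Per the submitters' processing notes the tools were FastQC 0.11.8, cutadapt 1.18, STAR 2.6.0, HTSeq 0.6.1 and DESeq2 1.42.0, and the builds hg19 and GRCh37, with no order or role given. The values deposited by the authors are a normalized signal, gene counts divided by 1 size factor per library; 100% of values were whole multiples of each library's step, which gave the reads. Per the labels' protocols libraries used a stranded total RNA kit (read pairs) or a stranded mRNA kit (single reads); which library had which, and whether counting used strand, is not given in the sources used here. A total RNA kit also counts unspliced and non-polyadenylated RNA. If strand was not used, ID2 shares 38 exon bases with ID2-AS1, whose mean was 16.6 to 51.9 per line. The NCA columns of replicates 2 and 3 in NGP and SK-N-BE(2)c are spelled apart from replicate 1, and the labels do not settle whether that is another control oligonucleotide.

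Log2(value + 1) was fitted in R 4.3.3 by limma 3.58.1, with 1 mean for each group, all groups of a line in 1 fit (a joint fit of 6 groups for NGP and SK-N-BE(2)c), a mean-variance trend, and genes with a mean of at least 10, which left 17309 in IMR32, 14440 in NGP, 13556 in SK-N-BE(2)c and 14537 in the joint fit. A call means p under 0.05 after Benjamini-Hochberg adjustment over all tested genes. Scripts were tested on simulated data. The members and lists were chosen with earlier results of these data known. A few genes of the pathway and marker lists are not reported here and enter no list count or sum. All 9 members are named; of the lists, the text names genes called with 1 sign in all 6 contrasts against NCA and the gene of each list with the largest mean absolute log2 fold change among those tested in all 3 lines. Exon lengths came from GENCODE release 29 and promoters from RefSeq on GRCh38.p14. For IMR32, 174 entries without a gene ID (0.172% of values) were left out. Per-sample columns without use numbered 0. Labels do not say that replicates came from separate cultures, so p-values measure the spread between these libraries, which may be technical; all replicate pairs differed by more than counting noise (chi-square per degree of freedom 1.23 or more). Same-numbered libraries did not deviate together in every number in any pair of groups (correlations -0.0646 to 0.332), so no block was used. Alternatives were other pseudocounts (0.5 and 5), other minimum means (none and 50), rescaling to the same total, a replicate block, edgeR 4.0.16 and DESeq2 1.42.0 on the recovered reads, and leaving out each library.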

Additional observations from a re-analysis of the deposited data

Results flagged for a closer look

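In groups of 4 libraries, all from IMR32, 4 of 27 sets of values had 1 library far from the other 3, with a gap to its neighbour above Dixon's 95% critical value; chance flags about 1 in 20 such groups. They were ID1 with ASO2, where replicate 1 was low (gap 0.918 of the range), SMAD6 with NCA, where replicate 4 was high (0.929), BAMBI with NCA, where replicate 3 was high (0.911), and SMAD7 with ASO2, where replicate 2 was high (0.885). Without ASO2 replicate 1 the ID1 difference between ASO1 and ASO2 was -0.60 in place of -0.47.

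The effect of ASO2 differed between NGP and SK-N-BE(2)c for ID3 (log2 -0.69, SK-N-BE(2)c minus NGP), SMAD6 (-0.60), ID1 (-0.29) and ID2 (-0.26), and that of ASO10 for HES1 (-0.69) and BAMBI (-0.38), each at a limma adjusted p under 0.05.

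SMAD6 had opposite directions in different lines. With ASO2, every IMR32 library lay above the NCA mean (4 of 4, log2 fold change 0.30) and every SK-N-BE(2)c library below it (3 of 3, -0.72). IMR32 was fitted apart, and this difference was not tested. ASO2 lay above the ASO10 mean in all 3 NGP libraries (0.59) and below it in all 3 SK-N-BE(2)c libraries (-0.33), and that difference between the lines was not tested either.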

How the results depend on the processing

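Of 144 counts of called genes under other settings, 143 stayed within 1.5 times the reported count; the exception was the number of genes whose ASO2 effect differed between NGP and SK-N-BE(2)c, which was 2 with no minimum mean level. Leaving out 1 library changed that count to between 2 and 4 and the ASO10 count to between 1 and 3, and kept 202 of 204 counts within 1.5 times. The counts in this paragraph include ID4 wherever it was called in the joint fit. Of 837 fold changes of the 9 genes under other settings, 815 kept their side of the threshold, 8 fell below it and 13 rose past it. The remaining 1 was called and reversed: ID3 with ASO2 in SK-N-BE(2)c, at -0.00925 after rescaling to the same total. The 815 include uncalled values near 0 that changed sign, such as ID1 and ID2 in that contrast (-0.02 and -0.07 after that rescaling). Of 1269 with 1 library left out, 1220 kept their side, 34 fell below the threshold and 15 rose past it. Uncalled values changed sign here too, such as BAMBI between ASO1 and ASO2 in IMR32 (-0.17 to 0.08). The causes were not tested.

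A replicate block, for numbers that share no stated origin, brought past the threshold ID4 between ASO1 and ASO2 in IMR32 (0.26, limma adjusted p = 0.0157) and between ASO2 and ASO10 in NGP (0.24, adjusted p = 0.0477), ID2 with ASO10 in NGP (0.13) and the ASO2 effect difference of BAMBI (-0.30, adjusted p = 0.0295), and changed no other call of the 9 genes. Depth limits HES1 in IMR32 and ID4 in SK-N-BE(2)c, which have few reads.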
